A study of Mus musculus with 4 samples.

Results

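Mouse synovium holds myeloid cells that make 1 or more of Retnla, Mgl2 and Cd209a. Here 335 such cells were described, out of 10136 kept synovial barcodes and 29563 kept barcodes in all 4 libraries. The cells were chosen by their UMI counts (a UMI marks 1 captured RNA molecule). A barcode was kept with at least 500 UMIs and at most 20% mitochondrial UMIs. It was a member with at least 3 UMIs of Csf1r, Cd68 and Mrc1 together, fewer than 2 of Trem2, at least 5 of Retnla, Mgl2 and Cd209a together, and at most 5 of Col1a1 and Col1a2. Single cells were captured from lung and synovium of TNF-Tg mice (TNF+), which carry a human TNF transgene and develop inflammatory arthritis and lung disease, and of littermates without it (TNF-). All mice were 4 months old, female and on the C57BL/6 background. Tissue was pooled by genotype, from 5 to 10 mice for synovium and from 3 to 5 for lung, so each of the 4 groups is 1 library. There was no replicate check: genotype and library cannot be told apart, no p-value is given, and each 95% interval covers counting error only. Reads were aligned to a mouse reference without the transgene, whose own transcript was therefore not measured.

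Mgl2, Cd209a and Mrc1 encode C-type lectins, receptors that bind sugars on microbes and on glycoproteins, and Retnla encodes a small secreted protein. Retnla and Mgl2 are classic targets of interleukin-4 and interleukin-13 acting through STAT6. Macrophages and a class of dendritic cells in connective tissue can carry these genes, and such cells also display peptides on MHC class II molecules, of which H2-Ab1 encodes a chain and Cd74 the invariant chain. Synovial tissue is known to hold resident macrophages with these lectins, next to other macrophages that carry Trem2 or inflammatory genes.

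The sequence before 4 genes described below is shown because the genes mark these cells or were among the highest in them. All come from RefSeq on build GRCm38.p6, read 5′ to 3′ on the strand of the gene, and end before the first exon. Capitals mark GATTGG, the inverted CCAAT box that is part of the known MHC class II promoter module, or its reverse CCAATC, in the first pair, and TTCNNNNGAA, a pattern that STAT6 is known to bind, in the second.
H2-Aa, chr17:34287824-34288003, minus strand: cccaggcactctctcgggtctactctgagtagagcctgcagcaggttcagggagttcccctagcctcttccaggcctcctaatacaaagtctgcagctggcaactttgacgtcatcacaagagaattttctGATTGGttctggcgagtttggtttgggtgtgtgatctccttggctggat
H2-Eb1, chr17:34305721-34305866, plus strand: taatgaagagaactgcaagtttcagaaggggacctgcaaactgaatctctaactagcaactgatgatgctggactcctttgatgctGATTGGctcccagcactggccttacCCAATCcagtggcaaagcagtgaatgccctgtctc
Retnla, chr16:48842429-48842550, plus strand: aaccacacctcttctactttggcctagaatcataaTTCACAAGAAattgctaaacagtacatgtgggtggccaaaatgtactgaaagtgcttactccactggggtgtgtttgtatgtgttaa
Ccl17, chr8:94810273-94810452, plus strand: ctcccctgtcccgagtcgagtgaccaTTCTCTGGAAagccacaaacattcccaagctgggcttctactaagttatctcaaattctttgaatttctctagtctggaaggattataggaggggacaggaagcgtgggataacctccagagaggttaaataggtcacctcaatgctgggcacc
Among 32851 windows of up to 180 bases before genes, read on both strands, 12.2% held GATTGG and 3.95% held TTCNNNNGAA. Of the 14 listed MHC class II genes 11 had a window, and 7 of the 11 held GATTGG (H2-Aa, H2-DMb1, H2-DMb2, H2-Eb1, H2-Eb2, H2-Oa and H2-Ob). These are matches of letters only. Mgl2 lies at chr11:70130329-70137550 and Cd209a at chr8:3743397-3748984 of the same build.

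The members were 296 of 6638 kept barcodes in the TNF- synovium, or 4.46% (95% interval 3.98 to 4.98), and 39 of 3498 in the TNF+ synovium, or 1.11% (0.794 to 1.52). Of the barcodes that passed the myeloid limit, 647 in the TNF- and 1129 in the TNF+ library, they made up 45.7% (41.9 to 49.7) and 3.45% (2.47 to 4.69). Barcodes with at least 2 UMIs of Trem2, called Trem2 macrophages here, went the other way, with 57 (8.81%) and 691 (61.2%). Barcodes of the same gate with little Trem2 and under 5 UMIs of the 3 rule genes, called other myeloid cells, were 226 (34.9%) and 382 (33.8%). These shares are a description, since the measured genes chose the cells, and a share does not tell fewer of these cells from more of the others. The limits are in absolute UMIs and so depend on depth. The median member held 21125 UMIs (range 1994 to 94256) under TNF- and 14677 (range 6322 to 29407) under TNF+. With every barcode thinned to 3000 UMIs before the rule was applied, 1.71% and 0.304% met it.

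**Figure D1:**
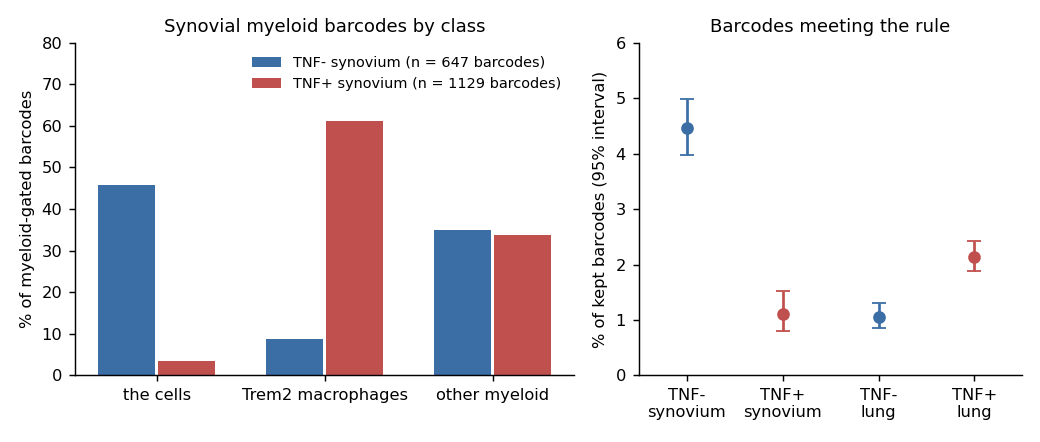
Left, the share of gated synovial myeloid barcodes (%) in each class, by library; right, the share of all kept barcodes (%) that met the rule in each of the 4 libraries, with 95% counting intervals. Members made up 45.7% of gated barcodes in the TNF- and 3.45% in the TNF+ synovium, and the lung libraries lay at 1.05% and 2.14%.

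The 4 libraries held 4246 to 11243 barcodes and 48454234 to 155989523 UMIs, with fewer barcodes from synovium than from lung. The mitochondrial limit removed 17.6% of barcodes in the TNF+ synovium and 1.41 to 3.78% in the others. The synovial libraries shared 5 barcode sequences, none of them a member in both. Muscle markers divided the TNF- members. Of these, 55 of 296 (18.6%) held at least 3 UMIs of 8 muscle genes, with a median of 33614 UMIs and 5270 genes, and 25 of the 55 were among the highest doublet scores. The other 241 had a median of 20210 UMIs and 3612 genes, with 11 high scores. No TNF+ member of 39 held 3 such UMIs, which allows a share of up to 7.69%. Several comparisons of the genotypes are therefore given with and without the 55, and the others with them only. The origin of the muscle RNA in the 55 was not tested.

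The rule genes varied widely from cell to cell. The summed UMIs of Retnla, Mgl2 and Cd209a had a low of 5, a median of 54.5 and a high of 1109 in TNF- members, and a low of 6, a median of 26 and a high of 320 in TNF+ members. Retnla was found in 114 (38.5%) of TNF- and 4 (10.3%) of TNF+ members, Mgl2 in 255 (86.1%) and 36 (92.3%), and Cd209a in 241 (81.4%) and 31 (79.5%). Near the limits, 5 TNF- and 3 TNF+ members had 5 or 6 UMIs of the 3 genes, and 11 and 5 barcodes that otherwise met the rule had 3 or 4. At the Trem2 limit, 17 TNF- and 8 TNF+ members held 1 UMI, and 16 and 7 barcodes held 2 or 3. At the myeloid limit, 31 and 8 members held 3 or 4 UMIs, and 26 and 7 barcodes held 1 or 2. Of the 39 TNF+ members, 8 (20.5%) thus lay at the Trem2 limit.

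Of the 6 markers, Retnla, Mgl2, Cd209a and Mrc1 are genes of the rule, so that their levels follow from it, while H2-Ab1 and Cd74 are not. In CPM, the UMIs of a gene summed over the cells and scaled to a total of 1000000, Retnla stood at 2785 in TNF- and 1034 in TNF+ members, Mgl2 at 683 and 1068, Cd209a at 812 and 570.4, and Mrc1, the mannose receptor, at 564 and 353. H2-Ab1 stood at 7116 and 12172 and Cd74 at 18676 and 28797. T cells of the same libraries had at least 3 UMIs of Cd3d, Cd3e and Cd3g together and fewer than 3 of Csf1r, Cd68 and Mrc1 together. In these T cells H2-Ab1 stood at 73.1 and 17.3 CPM and Cd74 at 498 and 104 CPM. Fcer1g, a receptor chain of myeloid cells that the rule did not use, was found in all 296 and 39 members, at 994 and 1544 CPM, against 103 and 223 CPM in T cells. With each cell thinned to 2000 UMIs, Mgl2 was detected in 58.0% of TNF- and 61.5% of TNF+ members, but in 1.03% of TNF- T cells and in none of the TNF+ T cells. Mrc1 was detected in 48.1% and 35.9% of members, again with 1.03% and none of the T cells. Both genes helped choose the members, and low Mrc1 helped choose the T cells, so these shares follow in part from the limits. A count of 0 in the 71 thinned TNF+ T cells allows a share of up to 4.23%. Without thinning, every member held H2-Ab1 and Cd74.

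The rule asks for the 3 transcripts, so the members hold much of them by construction. In the TNF- library they gave 75.3% of all Retnla UMIs of kept barcodes, 82.3% of Mgl2, 84.0% of Cd209a and 76.1% of Mrc1. In the TNF+ library they gave 42.8% of Retnla, 68.4% of Mgl2 and 75.3% of Cd209a, but 14.1% of Mrc1. The share of H2-Ab1 was 58.0% in the TNF- and 19.4% in the TNF+ library. Clec10a, the closely related neighbour gene of Mgl2, was not used in the rule, and its share was 73.6% and 33.7%.

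Markers of other cell types were low in the members, with exceptions. Neutrophil genes summed to 10.6 CPM in TNF- and 7.94 in TNF+ members, mast cell genes to 1.25 and 1.59, and erythroid genes to 1.81 and 0. T cell genes summed to 122 and 22.2 CPM, with 7 of 8 genes at 0 in TNF+ members and at least 3 UMIs in 78 of 296 TNF- members (26.4%) and 2 of 39 TNF+ members. B or plasma cell genes summed to 58.3 and 15.9, endothelial genes to 74.6 and 11.1 and fibroblast genes to 442 and 214. The natural killer and innate lymphoid list reached 361 and 572 CPM, most of it Il7r and Rora. The list for plasmacytoid dendritic cells reached 321 and 208, most of it Tcf4 and Bst2. Muscle genes summed to 73.9 CPM in TNF- and 9.53 in TNF+ members, and to 131 and 9.62 in the T cells, so muscle RNA differed between the libraries in T cells as well. In TNF+ members Pax7, Myf5, Ckm and Myh4 were at 0.

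**Figure D2:**
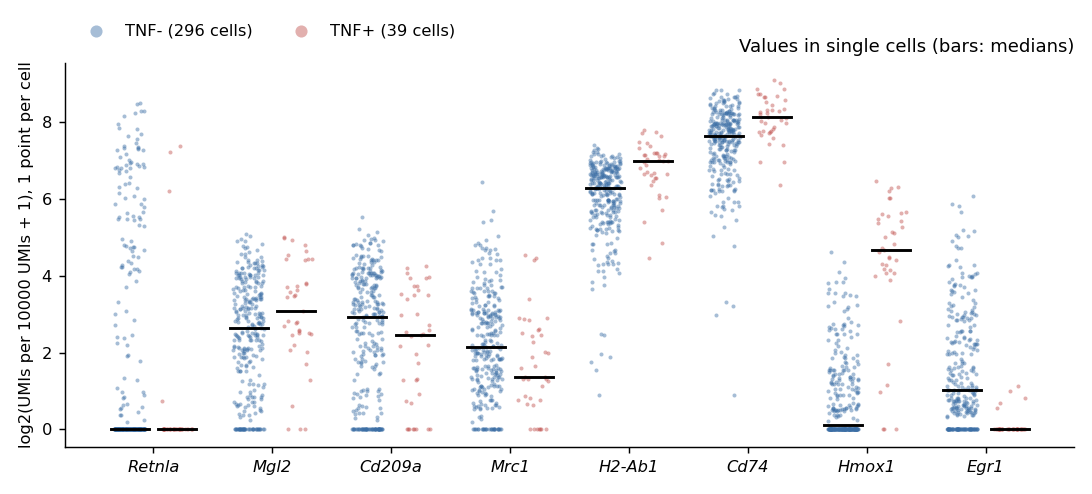
Values in single cells on the scale log2(UMIs per 10000 UMIs + 1), 1 point per cell and a bar at the median, for 8 genes in TNF- (296 cells) and TNF+ (39 cells) members. H2-Ab1 and Cd74 form a high band in both libraries, with a few TNF- cells far below it. Retnla splits into cells at 0 and cells at high values, and Hmox1 and Egr1 shift between the libraries in opposite directions.

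Within the TNF- library, members fell apart by which of the 3 genes led. Retnla led in 87 cells (29.4%, 24.3 to 34.9), Mgl2 in 78 (26.4%) and Cd209a in 127 (42.9%, 37.2 to 48.8), with 4 ties. By detection, 144 cells held Mgl2 and Cd209a without Retnla, 65 held all of the genes, 34 held Retnla with Mgl2 and 6 held Retnla with Cd209a. Cells with a single one of the genes were 26 for Cd209a, 12 for Mgl2 and 9 for Retnla. Across the 296 cells, which share 1 library, Retnla and Cd209a had a Pearson correlation of -0.61 and Mgl2 and Cd209a one of 0.33. The rule uses the sum of these genes, so the values are not independent of it.

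Retnla-led cells as a group carried a macrophage set, but single cells did not all carry its genes together. Across all TNF- members the upper quartile of C1qa was 0. One Retnla-led cell held 117 UMIs of Lyz1 per 10000 and 0 of C1qa, and another 31.8 of C1qa and 0 of Lyz1. The values that follow are sums. Their summed level of Pf4, a platelet-factor chemokine that tissue macrophages express, was 207 CPM, against 0.331 CPM (1 UMI) in Cd209a-led cells. Lyz1, a lysozyme gene so like Lyz2 that reads may be split between them, stood at 1838 and 4.97 CPM. C1qa, C1qb and C1qc, the chains of the first complement component, stood at 298, 355 and 174 CPM in Retnla-led cells and at 2.65, 6.29 and 0.994 CPM in Cd209a-led cells. The scavenger receptor Cd36 stood at 205 and 5.30 CPM and fibronectin, Fn1, at 1889.7 and 102 CPM. The monocyte chemokine Ccl7 (142 and 7.62 CPM) and the protease Mmp19 (280.3 and 16.9 CPM) went with them. All were past 2-fold higher, which 7.83% of 7373 genes were. Mgl2-led cells were near Retnla-led cells for C1qa, C1qb and C1qc (253, 287 and 165 CPM) and above them for Pf4 (241 CPM). These genes were thus not particular to Retnla-led cells. For Lyz1 (35.7 CPM), Cd36 (101) and Fn1 (312) Mgl2-led cells lay between.

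Cd209a-led cells as a group carried a dendritic cell set. Ccl17, a chemokine of dendritic cells, stood at 119 CPM in them, 305 in Mgl2-led and 4.71 in Retnla-led cells. Klrd1, a lectin-like receptor found on subsets of dendritic cells, stood at 184 CPM against 14.1 in Retnla-led cells, and Klrb1b at 140.1 against 14.1. The decoy interleukin-1 receptor Il1r2 stood at 101 against 7.70 CPM, Ms4a4c at 163 against 12 and Clec10a at 315 against 63.3. Gcnt2, Gpr183, Arl5c and Dusp2 completed the 10 leading genes, with log2 differences of -2.43 to -2.71 for Retnla-led over Cd209a-led cells. Genes past 2-fold lower in Retnla-led cells made up 3.42% of those compared. Leaving out the cells with muscle markers kept the direction of all 20 named genes.

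The fixed lists followed that split. Of 13 resident macrophage genes with enough counts, 10 were at least 2-fold higher in Retnla-led cells (median log2 ratio 2.86), among them Lyve1, Folr2 and Adgre1, and 1 was lower, the phosphatidylserine receptor Timd4. Of 12 conventional dendritic cell genes, 7 were at least 2-fold lower in Retnla-led cells (median -1.37), among them Flt3, Zbtb46, Dpp4 and Ccr7, and 2 were higher, Cd226 and Batf3. Of 12 complement genes 6 were higher and 1 lower. MHC class II genes differed less, with 3 of 13 lower and none higher. H2-Ab1 stood at 4802 CPM in Retnla-led, 8543 in Mgl2-led and 8076 in Cd209a-led cells. Macrophage and dendritic cell genes thus marked different members of the set. These splits were made on the cells that gave the values and are a description.

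Among TNF+ members the mix was another one. Mgl2 led in 26 of 39 cells (66.7%, 49.8 to 80.9), Cd209a in 8 (20.5%) and Retnla in 3 (7.69%), with 2 ties. Of the 651 Retnla UMIs of TNF+ members, 46.1% lay in 1 cell. Cells with Mgl2 and Cd209a but no Retnla were again the most frequent, with 26 of 39. Across these 39 cells H2-Ab1 and C1qa had a correlation of -0.66, against -0.29 across the TNF- cells. The upper quartile of C1qa was 0 in both libraries, so few cells set these values.

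The members were next set against the other myeloid cells of the same joint, first in the TNF- library. Against the 57 Trem2 macrophages, 158 genes (2.07% of 7619) were at least 2-fold higher and 536 (7.04%) at least 2-fold lower. The first-ranked was Ccl17, at 126 CPM in members and with no UMI in Trem2 macrophages, so at least 58.7-fold higher against a floor of 3 UMIs. Klrb1b (101 and 16.5 CPM), Arap2 (137 and 24.3), Dcstamp (103 and 27.2), Zeb1 (151 and 40.1) and Clec10a (191 and 53.0) followed. Zbtb46, a transcription factor of conventional dendritic cells, stood at 85.0 against 23.6 CPM, and Wnt11, Klrd1 and Cd24a had log2 ratios of 1.79, 1.75 and 1.71. Lower were the monocyte chemokine Ccl12 (8.49 and 232 CPM), Ms4a7 (5.29 and 104), Thbs1 (16.6 and 299), Cxcl1 (33.0 and 493), the monocyte genes Ly6c2 (7.37 and 105) and Plac8 (42.6 and 505), Gngt2, Ccl3, Fabp4 and Gsr.

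As lists, 5 of 12 dendritic cell genes were higher than in Trem2 macrophages and 1 lower, while 8 of 16 resident macrophage genes and 9 of 10 nonclassical monocyte genes were lower. Of the 12 complement genes 6 were lower and none was higher. C1qa stood at 159 CPM in members and 1057 in Trem2 macrophages. Of 13 MHC class II genes 3 were higher and 1 lower, with a median log2 ratio of 0.72. H2-Aa stood at 6313 against 3563 CPM, and its median per cell at 64.3 against 19.4 UMIs per 10000. By its sum, Retnla itself was no mark against the Trem2 macrophages of the TNF- library, where it stood at 4079 CPM. Few cells set that sum. Per cell, its upper quartile was 1.32 UMIs per 10000 in Trem2 macrophages, with a high of 564, against 17.9 and 359 in members. In the TNF- library 24 barcodes missed membership by Trem2 alone.

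Against the 226 other myeloid cells of the TNF- library, 481 of 7497 genes (6.42%) were at least 2-fold higher and 506 (6.75%) lower. The lectin gene Cd209d led (119.6 and 1.08 CPM), and then Ccl17 (126 and 2.71), Fcrls (304 and 6.77), Hs6st3 (97.7 and 3.25), Dcstamp (103 and 4.06), Lyz1 (608 and 34.9), the metallothionein Mt2 (809 and 59.0), Gpx3 (231 and 17.6), Asb5 (103 and 8.39) and the haemoglobin scavenger receptor Cd163 (146 and 13 CPM). For Gpx3 the log2 ratio of 3.72 was 0.45 without the cells with muscle markers, and for Hs6st3 the 4.91 was 2.70. The lowest against this set were plasma cell genes, with Ighg3 at 1.39 against 2606 CPM, Igkc at 14.9 against 5185 and Jchain at 0.139 against 165. The neutrophil genes S100a9 (1.39 and 462 CPM) and S100a8 (1.25 and 337) and the monocyte genes Chil3, Hp, Treml4 and Ace followed, with Apoc2. The other myeloid cells are thus a mixture that includes such RNA. Of 14 classical monocyte genes 10 were lower in the members, and of 11 nonclassical genes 9. Dendritic cell genes did not set the members apart here, with 4 of 16 higher and 4 lower (median log2 ratio 0.01). Of 13 MHC class II genes 2 were higher and none was lower.

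In the TNF+ library the same comparison rests on 39 cells and was added after the data were seen. Against 691 Trem2 macrophages, 575 of 6872 genes (8.37%) were higher and 1135 (16.5%) lower. Against 382 other myeloid cells, 364 of 7094 (5.13%) were higher and 1327 (18.7%) lower. Here MHC class II and dendritic cell genes stood apart from both. Of 13 MHC class II genes 10 were higher than in each set and none was lower. Of 13 dendritic cell genes 12 were higher than in Trem2 macrophages and 11 higher than in other myeloid cells, again with none lower. H2-Eb1 stood at 13205 CPM in members, 1391 in Trem2 macrophages and 1138 in other myeloid cells. Cd226 stood at 49.3, 0.981 and 0.203 CPM, Klrd1 at 103, 0.701 and 15.2, and Flt3, the receptor of the dendritic cell growth factor, at 35, 1.61 and 5.49. Of 11 nonclassical monocyte genes all were lower than in other myeloid cells.

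Between the genotypes, TNF+ over TNF- members, 434 of 6975 genes (6.22%) were at least 2-fold higher and 1202 (17.2%) at least 2-fold lower, with a median log2 ratio of -0.20 over all genes. Without the 55 cells with muscle markers, 457 of 6806 (6.71%) were higher and 1041 (15.3%) lower. With 39 cells on one side, few cells could set a value. This is said where it applies.

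The chains of MHC class II were higher in TNF+ than in TNF- members and lower in the other sets. H2-Eb1 stood at 6579.6 CPM in TNF- and 13205 in TNF+ members, a log2 ratio of 1.01 (0.97 to 1.04). H2-Aa stood at 6313 and 11613 CPM, H2-Ab1 at 7116 and 12172 and Cd74 at 18676 and 28797, with log2 ratios of 0.88, 0.77 and 0.62. Per cell the groups overlapped. H2-Ab1 ranged from 0.862 to 168 UMIs per 10000 with a median of 77.1 in TNF- members, and from 21.1 to 219 with a median of 124 in TNF+ members. In Trem2 macrophages H2-Eb1 stood at 4019 and 1391 CPM, and in other myeloid cells at 3402 and 1138, with log2 ratios of -1.53 and -1.58. In T cells, which do not make it, it stood at 109 and 1.92 CPM.

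Other genes of the same pathway went both ways. Of the 13 that could be compared, 4 were at least 2-fold higher, namely H2-Eb1, the protease genes Ctss (612 and 1325 CPM) and Lgmn (97.7 and 221 CPM) and the thiol reductase gene Ifi30 (421 and 1184 CPM). Ciita, the master transactivator of MHC class II, was at least 2-fold lower, at 48.8 and 22.2 CPM, in 159 and 11 cells. The peptide exchange genes H2-DMa (725 and 604 CPM) and H2-DMb1 (677 and 400.4 CPM) had log2 ratios of -0.26 and -0.76. Without the cells with muscle markers 1 gene of the list stayed past 2-fold higher, Ifi30, with H2-Eb1 at 0.83, Ctss at 0.98 and Lgmn at 0.99. The median of the list was 0.77, and 0.61 without those cells.

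Lectins and costimulatory ligands split as well. Clec4n, which encodes dectin-2, a receptor of fungal mannans, stood at 15.2 CPM in TNF- members (46 of 296 cells) and 316 CPM in TNF+ members (27 of 39 cells), a log2 ratio of 4.38 (4.04 to 4.73). Its relatives Clec4d (13.1 and 173 CPM) and Clec4e, the mincle gene (23.9 and 129 CPM), were higher too, while Clec10a (191 and 153 CPM) was not and Clec4a2 (132 and 62.0 CPM) was lower. Clec4n, Clec4d and Clec4e were also higher in TNF+ than in TNF- Trem2 macrophages, at log2 ratios of 3.79, 3.01 and 2.57. Cd274, which encodes PD-L1, stood at 24.1 and 164 CPM (72 and 28 cells), and Pdcd1lg2, which encodes PD-L2, at 3.89 and 66.7 CPM (16 and 13 cells), 42.9% of the latter in 1 cell. The log2 ratio of Pdcd1lg2 was 4.10 in members and -1.52 in Trem2 macrophages. Cd80 (138 and 138 CPM) and Cd86 (388 and 386 CPM) stood level. Of 11 lectin genes 4 were higher and 1 lower, and of 7 costimulation genes 3 and 2. Without the cells with muscle markers the counts were 4 and 2 for lectins and 2 and 2 for costimulation genes.

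**Figure D3:**
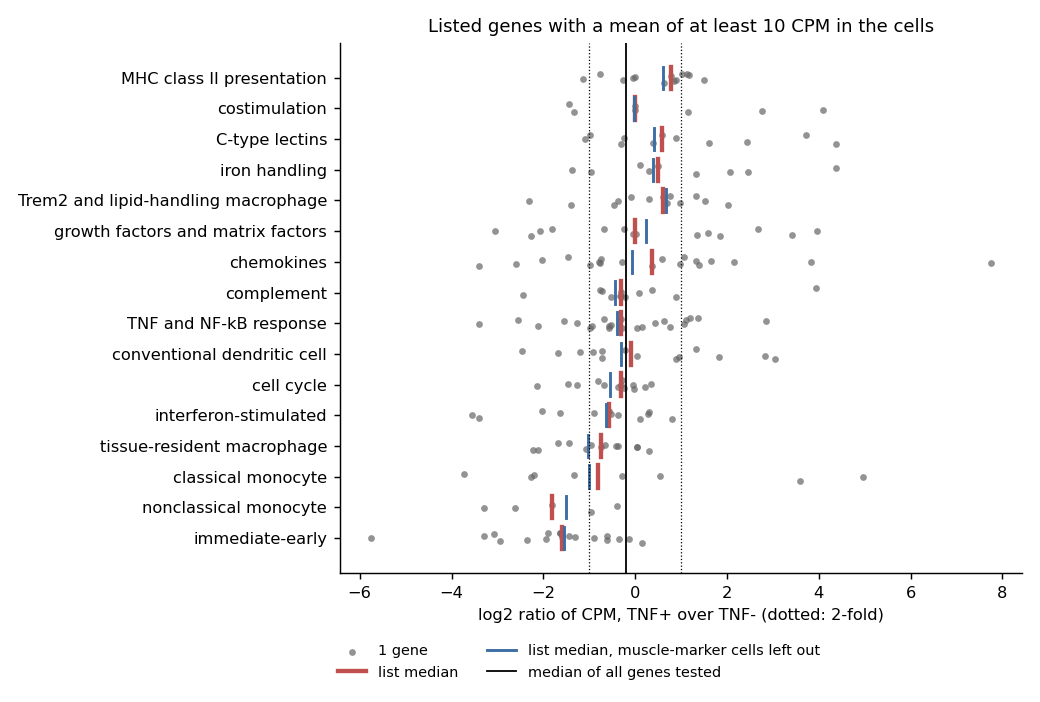
The log2 ratio of CPM, TNF+ over TNF- members, 1 point per listed gene with a mean of at least 10 CPM, by list, with the median of all compared genes as a line and 2-fold as dotted lines. Immediate-early genes lie left, with 13 of 19 at least 2-fold lower, and MHC class II and iron genes lie mostly right, with 4 of 13 and 4 of 9 at least 2-fold higher.

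Iron and haem genes were high in TNF+ members. Hmox1, the haem oxygenase, measured 138 CPM in TNF- members against 2884 in TNF+ members, a log2 ratio of 4.38 (4.27 to 4.49), and was found in 148 of 296 and 36 of 39 cells. The ferritin chains Fth1 (3388 and 18480.1 CPM) and Ftl1 (2708 and 6815 CPM) and the biliverdin reductase Blvrb (36.6 and 153 CPM) were also past 2-fold. Hmox1 differed as much in the other sets, with log2 ratios of 4.01 in Trem2 macrophages, 4.91 in other myeloid cells and 5.04 in T cells, the last from 0.821 to 26.9 CPM. Fth1 had log2 ratios of 2.30, 2.49 and 1.28 there. The difference was thus found in these other sets as well, in T cells on few UMIs of Hmox1, and what it came from was not tested. Cd163 was lower in TNF+ members by a log2 ratio of -0.97 (146 and 74.7 CPM), and past 2-fold lower without the cells with muscle markers.

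Immediate-early genes, which cells switch on within minutes of a stimulus, were low in TNF+ members. Of 19 such genes 13 were at least 2-fold lower and none higher, with a median of -1.59. Egr1 stood at 431 CPM (227 of 296 cells) and 7.94 CPM (5 of 39 cells), Fos at 1092 and 129 CPM, Nr4a1 at 373 and 38.1 and Fosb at 768 and 100.1. T cells differed in the same direction, with log2 ratios of -3.44 for Egr1, -1.55 for Fos and -2.75 for Nr4a1. Egr1 was lower in TNF+ Trem2 macrophages as well, with a log2 ratio of -4.54 (-4.72 to -4.36). In other myeloid cells Egr1 was nearly level (118 and 113 CPM). What the difference came from was not tested.

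**Figure D4:**
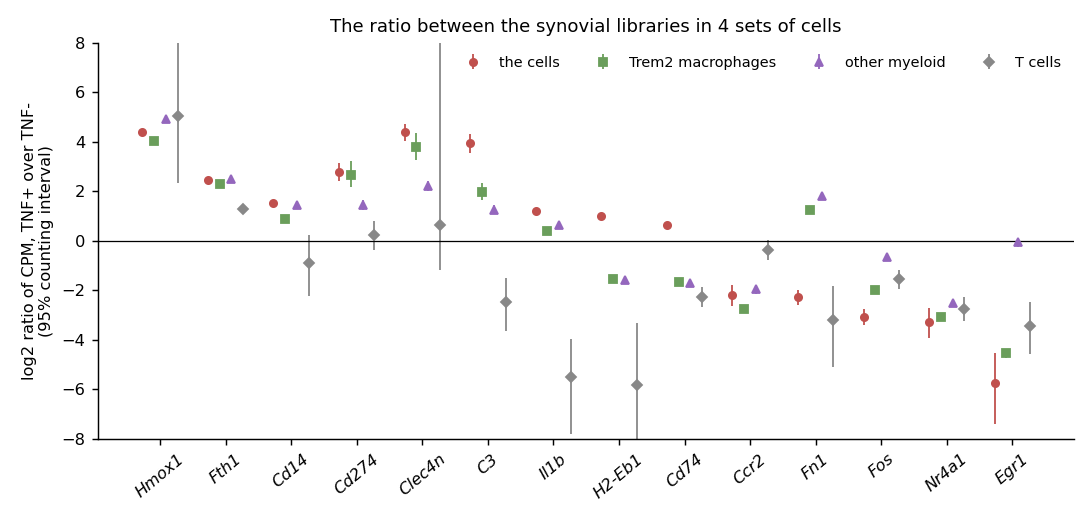
The log2 ratio of CPM between the synovial libraries, TNF+ over TNF-, with 95% counting intervals, for 14 genes in the members, Trem2 macrophages, other myeloid cells and T cells. Hmox1 and Fth1 lie above 0 in all of the sets, while H2-Eb1 and Cd74 lie above 0 in the members and below 0 in the rest.

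Several genes of monocytes and resident macrophages were lower in TNF+ members. Ccr2, the chemokine receptor by which monocytes leave the marrow, stood at 373 CPM (268 of 296 cells) and 81.0 CPM (21 of 39 cells), a log2 ratio of -2.20 (-2.63 to -1.80). It was lower in Trem2 macrophages and other myeloid cells as well (346 and 51.4 CPM, 261 and 66.8 CPM). Fn1 stood at 733 and 151 CPM, a log2 ratio of -2.28, but at 534 and 1264 CPM in Trem2 macrophages and at 223 and 783 CPM in other myeloid cells. F13a1, the clotting factor chain of resident macrophages, stood at 153 and 47.7 CPM and Cx3cr1, the fractalkine receptor, at 29.6 and 6.36. Of 13 resident macrophage genes 5 were at least 2-fold lower and none higher, and 7 without the cells with muscle markers. Of 5 nonclassical monocyte genes 3 were lower, and 4 without those cells. Of 8 classical monocyte genes 4 were lower (Ccr2, Fn1, Plac8 and Ifitm6) and 2 higher (F10 and Thbs1). The share of Retnla-led cells moved with these genes, from 29.4% to 7.69%, and its part in them was not tested.

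Dendritic cell genes went both ways. Ccr7, the receptor that guides dendritic cells to lymph nodes, stood at 27.4 CPM (40 cells) and 194 CPM (12 cells), 54.1% of the latter in 1 cell. Il1r2 (53.7 and 189 CPM), Ccl22 (14.6 and 36.5) and Kit (4.45 and 36.5) were the other higher ones. Batf3 (61.1 and 11.1 CPM), Dpp4 (47.9 and 20.7) and Cd226 (157 and 49.3) were at least 2-fold lower. Flt3 (41.0 and 35 CPM) and Klrd1 (101 and 103 CPM) stood level. Among alternative activation genes, Tgm2, a transglutaminase, stood at 7.23 CPM (27 cells) and 68.3 CPM (22 cells), and Ccl17 at 126 and 399 CPM, from 61 and 6 cells. Irf4 (109 and 27.0 CPM) and Klf4 (581 and 156 CPM), transcription factors of that programme, were lower.

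Among complement genes, on which the study centred, C3 alone of the 12 that could be compared was past 2-fold higher. It stood at 13.6 CPM in TNF- members (65 of 296 cells) and 208 CPM in TNF+ members (26 of 39 cells), a log2 ratio of 3.93 (3.54 to 4.33), and 3.98 without the cells with muscle markers. In Trem2 macrophages C3 stood at 53.7 and 209.9 CPM and in other myeloid cells at 96.1 and 229.8 CPM, so TNF- members were the lowest of the myeloid sets and TNF+ members were close to the others. In T cells it went from 96.9 to 17.3 CPM. Serping1, the C1 inhibitor, was lower (34.5 and 6.36 CPM), but by a log2 ratio of -0.14 without the cells with muscle markers. C1qa stood at 159 CPM (42 cells) and 93.7 CPM (5 cells), with 44.1% of its TNF+ UMIs in 1 cell, and had a log2 ratio of -0.76, or -1.12 without the cells with muscle markers. Properdin, Cfp (339 and 273 CPM), the integrin chain of complement receptor 3, Itgam (186 and 113), and the anaphylatoxin receptors C3ar1 (29.6 and 38.1) and C5ar1 (28.4 and 30.2) stayed within 2-fold. Cfb had 4 and 2 UMIs and Cr2 1 and 0, so that no ratio is given.

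Inflammatory genes went both ways. Il1b stood at 1387 and 3189 CPM, the neutrophil chemokine Cxcl2 at 628 and 1324 and the endotoxin co-receptor Cd14 at 578 and 1675, all past 2-fold higher, while mouse Tnf (75.1 and 12.7 CPM), Nfkbiz (458 and 106) and Tnfaip3 (258 and 87.4) were past 2-fold lower. Of 23 genes of the TNF and NF-kB response 5 were higher and 5 lower, or 4 and 6 without the cells with muscle markers, where Cxcl2 had a log2 ratio of 0.80. The interferon-induced chemokine Cxcl10 stood at 134 and 12.7 CPM (90 and 3 cells), and 4 of 12 interferon-stimulated genes were lower with none higher. Chemokine genes counted 7 higher and 4 lower of 19, with Cxcl16 at 94.2 and 418 CPM (171 and 37 cells) and Ccl2 at 193 and 31.8. Without the cells with muscle markers they counted 6 and 7. Among growth and matrix factors 6 of 14 were higher and 4 lower. Vegfa, the vessel growth factor, stood at 14.7 and 157 CPM (46 and 15 cells), the elastase Mmp12 at 24.3 and 378 (21 and 16 cells), and Hbegf at 26.6 and 3.18. None of 13 cell cycle genes was past 2-fold higher and 3 were lower, with Mki67 at 50.9 and 58.8 CPM.

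The genes with the largest ratios were often those of few cells. H2-M2, a nonclassical class I gene, went from 1 UMI to 146 CPM, a log2 ratio of 10.04 (7.52 to 15.36), from 5 cells with 55.4% of UMIs in 1. Cxcl3 went from 3 UMIs to 90.6 CPM, 7.76 (6.14 to 10.08), with 71.9% in 1 of 5 cells. Cd207, which encodes langerin of Langerhans cells and some dendritic cells, had 0 UMIs in TNF- and 68.3 CPM in TNF+ members, at least 164-fold against a floor of 3 UMIs over the group, from 3 cells. Mucl1 (4 cells), Plet1 (10 cells), Zmynd15 (11 cells) and Ms4a4a (14 cells) had log2 ratios of 5.28, 5.34, 5.78 and 4.68. Thbs1, or thrombospondin, stood at 16.6 and 515 CPM (11 cells, 34.6% of UMIs in 1) and Ifitm1 at 13.8 and 303 CPM (18 cells, 41.4% in 1). The cells with muscle markers held 69.7% of the TNF- UMIs of Thbs1, whose log2 ratio was 4.96 with and 6.20 without them. Procr, the endothelial protein C receptor gene, stood at 3.62 and 127 CPM (17 cells, 18.8% in 1). Clec4n and Hmox1 closed the 12.

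For 9 of the 12 lowest, most TNF- UMIs lay in the cells with muscle markers. These held from 79.7 to 96.8% of the TNF- UMIs of Dmd (dystrophin), Tenm4, Cdh13, Nfib, Gpx3, Bnc2, Pakap, Wwtr1 and Flnc. The log2 ratio of Gpx3 was -5.19 with and -0.70 without them, and that of Pakap -4.76 and -0.27. The other 7 stayed past 2-fold lower without them, from -1.22 for Bnc2 to -3.97 for Tenm4. Egr1, Plcb1 and Cavin1 kept log2 ratios of -5.15, -5.29 and -4.56 without them. By the same rule with those cells left out, the lowest were Plcb1, Egr1, Hist1h2ap, the retinoic acid enzyme gene Aldh1a2, Themis2, Srgap3, Pvt1, Kcnq1, Plac8, Cxcl10 and Rnase6, at log2 ratios of -3.31 and lower, and Plxna4, a semaphorin receptor gene with no UMI in TNF+ members.

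Since the mix of leading genes differed between the libraries, the ratios were also taken in Mgl2-led cells alone, 78 in the TNF- and 26 in the TNF+ library. There Hmox1 stood at 90.4 and 2726 CPM (log2 ratio 4.91), C3 at 8.06 and 254 CPM (4.98) and Clec4n at 25.9 and 319 CPM (3.62). H2-Eb1 stood at 7615 and 13137 CPM (0.79) and Ccr2 at 288 and 50.8 CPM (-2.50). Egr1 stood at 464 and 12.1 CPM (-5.26). The direction of these 6 was that of all members, but the size of the ratio changed for several genes. Hmox1 differed more than in all members (4.38), and Fn1 differed less (-1.46 in Mgl2-led cells). F13a1 (-0.66) and Ccl17 (0.99) were no longer past 2-fold. What part the mix had in these ratios was not tested.

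The same UMI rule picked out cells in the lung, where it selected 88 of 8342 kept barcodes in the TNF- library (1.05%, 0.847 to 1.3) and 237 of 11085 in the TNF+ library (2.14%, 1.88 to 2.42). They were deeper, with medians of 24032.5 and 28048 UMIs, and 48 and 151 of them held over 5000 genes. Mgl2 stood at 1061 and 831 CPM there, Cd209a at 654 and 671, and Retnla at 294 and 68.3 (10 of 88 and 26 of 237 cells). H2-Eb1 was nearly level, at 7667 and 8460.2 CPM, and so was Hmox1, at 21.9 and 20.9 CPM. C3 stood at 21.0 CPM (13 cells) and 301 CPM (189 cells), a log2 ratio of 3.84 (3.44 to 4.28), close to that in the synovium. Egr1 was lower in the TNF+ lung (111 and 23.4 CPM), and Ccr2 was higher (429.8 and 900.4 CPM), opposite to the synovium. C1qa stood at 642 and 151 CPM.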

How the data were processed

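Libraries were made with the 10x Genomics 3' kit from live cells sorted with a viability dye. The deposited values are UMI counts per gene and barcode, which the authors made with Cell Ranger 7.0.1 on the 10x mouse reference (mm10), with no normalization. No deposited file names cell types, and the cells and lists used here were chosen with earlier results of these data known. Of 32285 genes, 32158 were found in GENCODE vM21 of the same build. The UMIs of the members in each library were added up and scaled to CPM, and ratios were compared for genes with a mean of at least 10 CPM. With 1 library per group there is no test. Intervals are exact at 95% (Clopper-Pearson for shares, Poisson for levels, conditional binomial for ratios) and cover counting error only. Called means past 2-fold. A group at 0 was given a floor of 3 UMIs.

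Named genes were the 12 highest and 12 lowest ratios between genotypes with a mean of at least 20 CPM, the 10 highest and 10 lowest of each comparison between cell sets at 50 CPM, and, of each list, the 4 members with the highest mean and those past 2-fold at 20 CPM, with the genes of the rule, mitochondrial and ribosomal genes and gene models left out of the rankings. The text gives those that show each list. Genes that stood level and counts below 20 CPM were named as members of a list after their values were seen. Doublets were not removed. Scrublet scores were computed with scanpy 1.11.5 (Python 3.11.15, numpy 2.4.6, scipy 1.17.1, pandas 2.3.3), and the highest 0.8% of cells per 1000 barcodes were left out as an alternative. The ratio scripts were tested on simulated data. Comparisons in the TNF+ library with 39 cells, and those without muscle-marker or Retnla-led cells, were added after the data were seen. Clec7a, Clec6a, Mx1 and Mx2 were not analysed here.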

Additional observations from a re-analysis of the deposited data

Results flagged for a closer look

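The share of all kept barcodes that met the rule went opposite ways in the tissues. In the synovium it was 3.34 percentage points lower in the TNF+ library (4.46% in TNF- and 1.11% in TNF+, a difference of -3.34), and in the lung it was 1.08 percentage points higher (1.05% and 2.14%). What drew attention was that the 1 library of each genotype moved one way in one tissue and the other way in the other. With 1 library per group the difference between tissues was not tested. The counting intervals of the libraries did not overlap in either tissue. Of gated myeloid barcodes the share was lower in the TNF+ library in both tissues, at 45.7% and 3.45% in the synovium and at 7.04% (5.68 to 8.60) and 4.28% (3.76 to 4.85) in the lung.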

How the results depend on the processing

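No paired analysis was possible because each group is 1 library and the labels give no replicate numbers. With 200 to 5000 genes per cell the share of members was 3.85% in the TNF- synovium, 0.572% in the TNF- lung and 0.937% in the TNF+ lung. With barcodes thinned to 3000 UMIs it was 1.71% (TNF- synovium), 0.304% (TNF+ synovium), 0.382% (TNF- lung) and 0.578% (TNF+ lung). Without muscle-marker cells the TNF- synovium stood at 3.63%. With all members kept, their shares of gated myeloid barcodes were 45.7% and 3.45%. Genes past 2-fold between genotypes numbered 163 higher and 281 lower at a mean of at least 50 CPM, and 7463 and 2495 with no filter on low values, where most have few UMIs. With median-of-ratios scaling 526 were higher and 1056 lower. Against Trem2 macrophages of the TNF- library, 325 genes were higher and 843 lower with 200 to 5000 genes per cell, and 269 were higher with each cell weighted equally. The median log2 ratio changed sign for the B or plasma cell markers with no filter (2.10) and for the natural killer cell markers with 200 to 5000 genes (0.38, from 2 genes). Of the other alternatives for single genes, 364 log2 ratios moved by less than their counting interval and 60 by more, with none reversed. Depth limits the TNF+ side most: 39 cells held 629379 UMIs, so that a gene under 10 CPM had at most 6 UMIs.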
